A study of Mus musculus with 19 samples.

Results

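Lymphoid-primed multipotent progenitors (LMPP) were compared with haematopoietic stem cells (HSC) from the same tissue, the bone marrow of adult C57BL/6 mice aged 12 weeks. The samples were chosen by their labels, which name adult bone marrow HSC or LMPP: 6 of the 11 RNA libraries of the study (3 of each population) and 4 of its 8 ATAC samples (2 of each), or 10 of 19 samples in all. The other samples are HSC and LMPP from fetal liver at E14.5, and they share the estimate of spread in the fit and are otherwise used only where the same difference in the fetus is set beside the adult one. The labels name no transgene, deletion or treatment in any group, and the design text calls the replicates biological without saying how many mice were pooled in each. Both adult populations were sorted by flow cytometry as live cells (7AAD-) that carried cKit and Sca1 and lacked the lineage markers B220, CD11b, CD3, Gr1 and ter119. The HSC gate then took CD150+ cells without CD48 or Flt3, and the LMPP gate took CD48+ and Flt3+ cells without CD150.

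HSC renew themselves and give rise to every blood lineage, and in adult marrow most of them divide rarely. LMPP are a later progenitor that can still form lymphocytes, granulocytes and macrophages but has little remaining capacity for megakaryocytes and erythrocytes. Flt3, a receptor tyrosine kinase for Flt3 ligand, promotes early lymphoid and dendritic development.

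RNA was read as counts over exons for 25124 genes, 20870 of them protein coding, in libraries that copy full-length transcripts from few cells. The 6 adult libraries held 19799398 (LMPP 1) to 61668678 (HSC 3) counts, so that 3 counts, used here as a floor for a gene at 0, corresponded to 0.0498 to 0.152 CPM (counts scaled to a common library total). Levels below are CPM scaled for library composition and are not divided by gene length, so they compare libraries and not genes. The first principal component of the adult libraries (61.6% of the variance) separated HSC from LMPP, and the second (20.1%) separated the replicate 3 library of each population from replicates 1 and 2. Ubb, a polyubiquitin gene, made up 2.68% and 2.59% of the counts in these replicate 3 libraries against 1.03 to 1.54% in the other 4. The replicate 3 libraries also deviated together (correlation 0.47, against -0.37 to 0.22 between libraries of unlike number). Deviations were taken from the mean of each group, so these correlations depend on each other and the range is no independent baseline. Values of HSC 3 and LMPP 3 are therefore given for each gene that the results turn on. In bulk RNA, fewer cells that express a gene and less of its RNA per cell cannot be told apart.

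The genes of the sorting markers describe the gates and are no finding. Flt3 stood at 14.3, 16.4 and 9.40 CPM in HSC 1 to 3 and at 1064, 950.3 and 908 CPM in LMPP 1 to 3. Cd48 was at 4.75, 3.35 and 9.84 CPM in HSC and at 364, 336 and 419.8 CPM in LMPP. Slamf1, which encodes CD150, was at 69.7, 74.0 and 69.0 CPM in HSC and at 0, 0.953 and 0.491 CPM in LMPP. These 3 genes followed the labels in each of the 6 libraries. Kit, which both gates required, was at 1138, 1143 and 196 CPM in HSC and 551, 592 and 158 CPM in LMPP, so that the replicate 3 library was the lowest of its group in both populations. Ly6a (Sca1) levels overlapped, at 59.7, 133 and 100.0 CPM in HSC and 49.0, 82.4 and 69.2 CPM in LMPP. Itgam, the gene of CD11b, was at 4.41, 2.44 and 2.31 CPM in HSC and 27.6, 38.0 and 17.2 CPM in LMPP, although cells with CD11b on the surface were excluded from both gates.

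Of 14720 genes with enough counts to test, 1143 were higher in LMPP (7.76% of those tested) and 1373 were lower (9.33%), or 17.1% in either direction, by edgeR's quasi-likelihood test with Benjamini-Hochberg adjustment at 0.05. By fitted log2 difference, 586 genes were at least 8-fold lower in LMPP and 229 at least 8-fold higher. These tallies have no floor on level, and the fitted size cannot be read for a gene at 0 in 1 group. Of the lower genes 226 had no count in any LMPP library, and of the higher genes 64 had none in any HSC library. Depth was unequal, with 28819725, 27435192 and 61668678 counts in HSC 1 to 3 and 19799398, 34950394 and 33121782 in LMPP 1 to 3. Whether the falls were deeper than the rises at matched depth was not tested. Over all tested genes the median log2 difference was -0.05, and the 3 and 3 libraries did not overlap for 31.8% of them. Among the called genes, 1129 of the higher and 1363 of the lower had no overlap between the groups. The number of calls moved with the libraries and the model. Without HSC 3, LMPP 3 and 1 fetal library that also stood apart there were 2017 higher and 2291 lower genes, and without LMPP 1 there were 727 and 891. With the adult libraries alone there were 701 and 1097, and with those libraries and the replicate number as a block 2074 and 2282; the block in the fit of all 11 libraries gave 1088 and 1228. No gene called in the 11-library fit was called in the opposite direction under any of these settings.

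**Figure D1:**
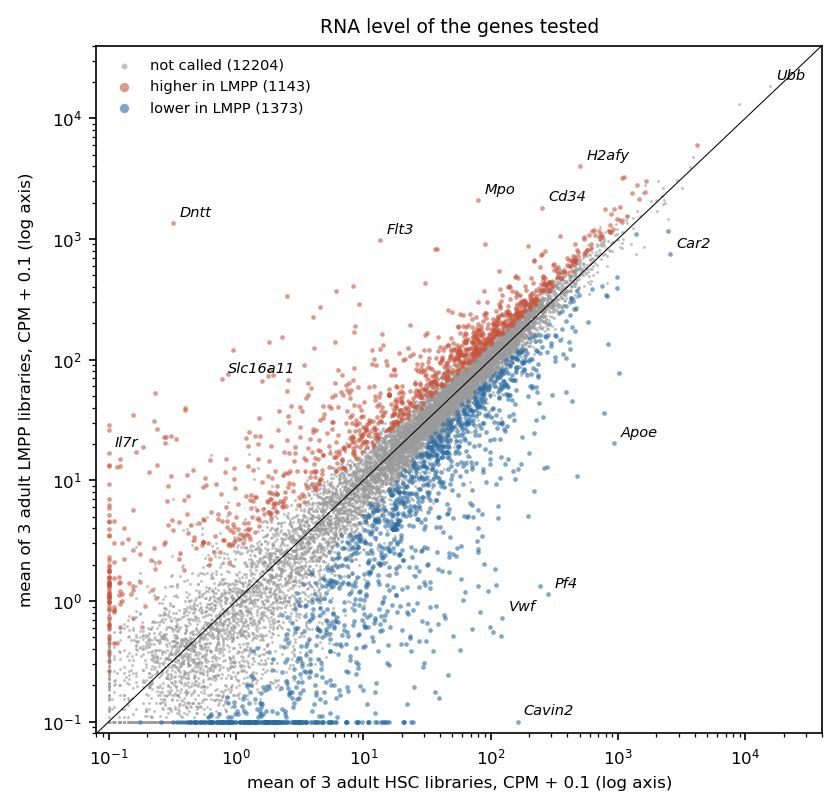
Each point is 1 of the 14720 tested genes, placed by its mean level in the 3 adult HSC libraries (horizontal axis) and in the 3 adult LMPP libraries (vertical axis), both as CPM plus 0.1 on log scales, with called genes coloured and a line where both means are equal. By fitted log2 difference 586 called genes were at least 8-fold lower and 229 at least 8-fold higher. Genes of low level can be drawn nearer the line than this, because 0.1 is added.

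Genes of the lymphoid programme were higher in LMPP. Of 36 tested genes of a lymphoid priming list (39 listed), 21 were higher and 3 lower, with a median log2 difference of 1.76 beside -0.05 for all genes; Flt3 is among the 21 and was selected by the sort. Dntt, which encodes the terminal transferase that adds bases at antigen receptor joints (chr19:41029275-41059525 in mm10), was at 0.0317, 0 and 0.631 CPM in HSC 1 to 3 and 1167, 1182 and 1694 CPM in LMPP 1 to 3 (log2 difference 12.20 ± 0.97, adjusted p = 0.000112). It was near or at 0 in every HSC library and among the genes with the most counts in every LMPP library. Il7r, the receptor for the lymphoid growth factor interleukin 7, had no count in any HSC library and 19.4, 15.3 and 15.4 CPM in the LMPP libraries, at least 207-fold higher against a floor of 3 counts per library (adjusted p = 0.000159). Rag2, a subunit of the recombinase that cuts antigen receptor genes, was at 0.38, 0 and 0.0166 CPM in HSC and 51.8, 39.5 and 65.6 CPM in LMPP (log2 difference 8.79 ± 0.85, adjusted p = 0.000183). Its partner Rag1 stayed low in both, at 0.0634, 0.0651 and 0.116 CPM in HSC and 0.505, 0.448 and 0.589 CPM in LMPP (adjusted p = 0.033). This call was lost when any adult library other than HSC 3 was left out (adjusted p from 0.054 to 0.1) and with the adult libraries and a replicate block (0.099).

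Regulators and surface molecules of the lymphoid list moved with them. Satb1, a chromatin organiser of early lymphoid cells, was at 4.88, 6.12 and 2.29 CPM in HSC and 266, 318 and 234 CPM in LMPP (log2 difference 5.96 ± 0.36, adjusted p = 7.6e-06). Cd53, a tetraspanin of leukocytes, was at 6.25, 6.90 and 11.6 CPM and 376, 380.1 and 463 CPM (log2 difference 5.62 ± 0.26, adjusted p = 2.02e-06). For both genes the lowest LMPP library was far above the highest HSC library, and the rule that named Cd53 required no overlap. The chemokine receptors Ccr7 and Ccr9, which guide lymphoid cells to lymph node and thymus, were at most 0.349 CPM in any HSC library; Ccr7 was at 13.5, 16.4 and 14.4 CPM and Ccr9 at 20.01, 8.38 and 11.2 CPM in LMPP (adjusted p = 2.59e-05 and 0.000805). Notch1, the receptor that directs T cell fate, was higher but with the replicate 3 libraries low in both groups, at 5.17, 10.1 and 1.23 CPM in HSC and 55.8, 48.2 and 15.8 CPM in LMPP (log2 difference 2.87 ± 0.73, adjusted p = 0.0221). The Notch1 call was lost with the adult libraries alone (adjusted p = 0.061) and without HSC 1 (0.076), LMPP 1 (0.072) or LMPP 2 (0.053). Ikzf1, which encodes the lymphoid regulator Ikaros, did not pass the test, with 63.4, 67.9 and 22.9 CPM in HSC and 148, 157 and 67.7 CPM in LMPP (log2 difference 1.28, adjusted p = 0.084), and did pass with DESeq2 (adjusted p = 0.022), without LMPP 3 (0.044) and with the adult libraries and a replicate block (0.00041). Gata3, a regulator of T cells that HSC also express, was 1 of the 3 lower members, at 27.8, 32.1 and 26.8 CPM in HSC and 4.29, 8.54 and 6.88 CPM in LMPP (log2 difference -2.13 ± 0.28, adjusted p = 0.000706).

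**Figure D2:**
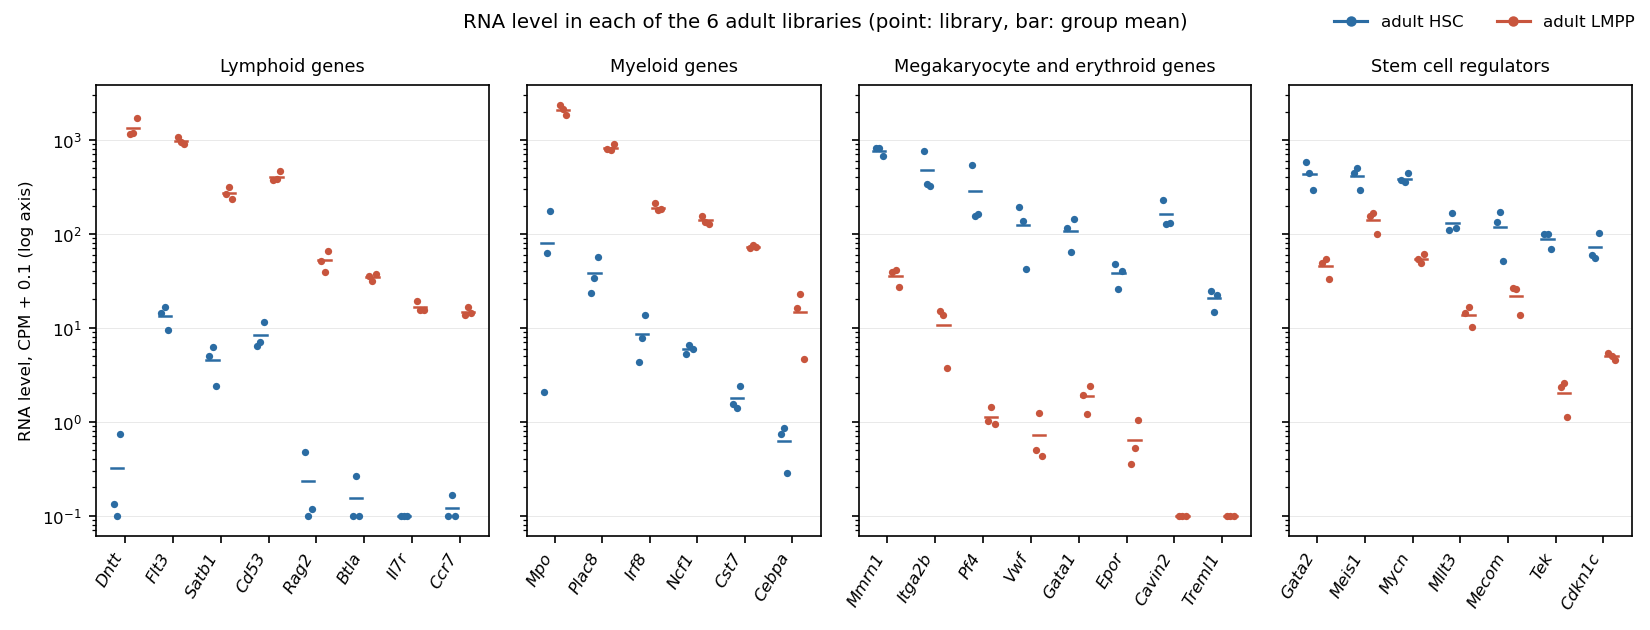
RNA level (vertical axis, CPM plus 0.1, log scale) of 29 named genes in each of the 6 adult libraries, HSC in blue and LMPP in red, with a bar at the group mean. The lymphoid and myeloid genes shown are higher in every LMPP library than in any HSC library, and the megakaryocyte, erythroid and stem cell genes shown are lower. The rule that named many of them required no overlap, which 31.8% of all tested genes met. Points at 0.1 have no count.

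Genes of committed B cells had few counts in LMPP. Of 18 tested genes of a pre-B and antigen receptor list (19 listed), 6 were higher and 1 was lower (median log2 difference 2.40, or 1.76 with genes at 0 in 1 group set to their bound). Dntt, Rag1 and Rag2 account for 3 of the 6. Ebf1, the factor that commits cells to the B lineage, had no count in HSC and 1.01, 0.784 and 0.655 CPM in LMPP (adjusted p = 0.00429). Igll1, a surrogate light chain gene, was at 0, 0.0651 and 0 CPM in HSC and 1.42, 0.869 and 1.05 CPM in LMPP (adjusted p = 0.0401). Foxo1, which acts upstream of Rag and Il7r, was the lower member, at 34.0, 35.0 and 31.7 CPM in HSC and 16.5, 22.1 and 14.6 CPM in LMPP (log2 difference -0.92 ± 0.23, adjusted p = 0.0201), and it lost its call without HSC 1 (0.055), HSC 2 (0.06), LMPP 1 (0.076) or LMPP 3 (0.065). The count of higher genes fell to 3 without HSC 1, HSC 2, LMPP 2 or LMPP 3.

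The promoters of Btla and Kmo are shown because their RNA was at or near 0 in HSC and because, in the deposited ATAC peak lists, an accessible region covered each of these windows in the LMPP list and none did in the HSC list. Btla encodes an inhibitory receptor of lymphocytes, and its RNA was at 0, 0.163 and 0 CPM in HSC and 35.5, 31.5 and 37.0 CPM in LMPP (log2 difference 9.51 ± 0.84, adjusted p = 0.000103). Kmo encodes kynurenine 3-monooxygenase of tryptophan breakdown, and it had no count in HSC against 16.6, 14.1 and 8.78 CPM in LMPP, at least 162-fold higher (adjusted p = 2.72e-05). The windows run from 250 bases before to 49 after the start base on the plus strand of RefSeq's GRCm38.p6, chr16:45224087-45224386 for Btla and chr1:175631943-175632242 for Kmo. Capitals mark matches to the motif letters GAGGAAGT (ETS family) and TGTGGTT (RUNX), searched on both strands.
Btla: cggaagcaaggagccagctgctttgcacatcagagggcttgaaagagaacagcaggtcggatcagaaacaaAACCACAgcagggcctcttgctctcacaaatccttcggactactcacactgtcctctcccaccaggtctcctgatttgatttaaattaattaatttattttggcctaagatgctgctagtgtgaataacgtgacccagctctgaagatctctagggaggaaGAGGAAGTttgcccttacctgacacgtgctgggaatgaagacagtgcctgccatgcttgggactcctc
Kmo: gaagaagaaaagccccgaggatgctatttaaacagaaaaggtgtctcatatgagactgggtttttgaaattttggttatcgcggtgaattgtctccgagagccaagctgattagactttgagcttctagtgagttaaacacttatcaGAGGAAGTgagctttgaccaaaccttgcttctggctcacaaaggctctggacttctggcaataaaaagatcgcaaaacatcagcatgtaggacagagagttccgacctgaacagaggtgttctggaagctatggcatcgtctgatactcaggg
The ETS letters end 11 bases before the Btla start and 96 bases before the Kmo start, and the RUNX letters in the Btla window lie on the other strand. Of all 32817 RefSeq promoter windows of this length 3.2% hold the ETS letters and 5.27% the RUNX letters. These promoters were chosen after their values were seen, and a match to letters is a description and not a binding site.

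Myeloid genes were also higher in LMPP. Of 41 tested genes of granulocytes and monocytes, 19 were higher and none was lower (median log2 difference 1.41). Mpo, the peroxidase of granulocyte granules, was at 1.97, 62.5 and 175 CPM in HSC 1 to 3 and 2351, 2117 and 1841 CPM in LMPP (log2 difference 4.71 ± 1.06, adjusted p = 0.0121). The HSC libraries spread widely, from near 0 in HSC 1 to 175 CPM in HSC 3, and all lay far below LMPP; the adjusted p was 0.053 with the adult libraries alone and 0.054 without HSC 2. Elane, neutrophil elastase of the same granules, overlapped between the groups, at 0, 6.77 and 33.3 CPM in HSC and 10.5, 19.9 and 24.98 CPM in LMPP (adjusted p = 0.881), and followed the same order of HSC libraries. Cebpa, the factor that starts granulocyte development, was at 0.634, 0.749 and 0.183 CPM and 16.3, 22.9 and 4.58 CPM (log2 difference 4.84 ± 0.82, adjusted p = 0.00286), lowest in the replicate 3 library of each group. Spi1, which encodes PU.1, a factor of myeloid and lymphoid cells, was at 60.5, 59.4 and 102 CPM and 153, 154 and 209 CPM (log2 difference 1.22 ± 0.22, adjusted p = 0.0039). Other raised genes of the list carried larger differences: Irf8 (log2 difference 4.48 ± 0.48, adjusted p = 0.0002), a factor of monocytes and dendritic cells, and Plac8 (log2 difference 4.45 ± 0.31, adjusted p = 1.77e-05). Ncf1, a subunit of the phagocyte oxidase, was higher by 4.57 ± 0.21 on the log2 scale, and Cst7, an inhibitor of cysteine proteases, by 5.41 ± 0.33. The growth factor receptor Csf3r was at 50.1, 84.0 and 53.0 CPM in HSC and 169, 218 and 109 CPM in LMPP (log2 difference 1.41 ± 0.26, adjusted p = 0.00479).

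The Mpo promoter is shown because a region of the LMPP list lay over it and none of the HSC list did (chr11:87793534-87793833, plus strand, GRCm38.p6); the signal of that region, 4.42 in the authors' units, was low for the list, whose median was 8.11. Capitals mark the ETS letters, which end 217 bases before the start.
Mpo: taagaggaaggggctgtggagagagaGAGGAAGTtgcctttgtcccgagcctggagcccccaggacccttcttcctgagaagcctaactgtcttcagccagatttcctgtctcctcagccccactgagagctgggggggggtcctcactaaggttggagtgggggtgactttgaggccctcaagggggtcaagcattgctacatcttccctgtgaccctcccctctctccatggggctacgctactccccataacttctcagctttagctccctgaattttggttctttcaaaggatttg
Like the windows above, it was chosen after its values were seen.

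A dendritic progenitor list had 9 of 15 tested genes higher and 1 lower (median log2 difference 3.12, or 1.19 at the bound), with 5 higher without HSC 1. Cox6a2, a subunit of cytochrome oxidase found in plasmacytoid dendritic cells, was at 0, 0 and 0.0498 CPM in HSC and 11.5, 14.7 and 12.3 CPM in LMPP (adjusted p = 0.000139). Itgax, the CD11c gene, was at 0.0317, 0 and 0 CPM and 3.84, 3.92 and 1.01 CPM (adjusted p = 0.00124). Irf8 and Ccr9 belong to this list as well, so its count is not separate from those above.

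Genes of the megakaryocyte lineage were nearly all lower in LMPP. Of 34 tested genes of a megakaryocyte and platelet list (36 listed), 30 were lower in LMPP and none was higher, with a median log2 difference of -3.93. Cavin2, a coat protein of caveolae that is abundant in platelets (chr1:51289126-51302960 in mm10), was at 229, 126 and 132 CPM in HSC and had no count in any LMPP library, at least 1460-fold lower (adjusted p = 2.8e-05). Itga2b, the platelet integrin CD41, was at 764, 336 and 321 CPM in HSC and 14.8, 13.5 and 3.67 CPM in LMPP (log2 difference -5.48 ± 0.74, adjusted p = 0.000785), highest in HSC 1. Pf4, a chemokine of platelet granules, was also highest in HSC 1, with 536, 155 and 161 CPM in HSC and 0.91, 1.34 and 0.851 CPM in LMPP (log2 difference -8.08 ± 0.92, adjusted p = 0.000268). Vwf, the clotting factor that also marks platelet-biased HSC, was at 191, 137 and 42.4 CPM in HSC and 0.404, 1.15 and 0.327 CPM in LMPP (log2 difference -7.55 ± 0.75, adjusted p = 0.000125), lowest in HSC 3. None of these genes overlapped between the groups, which the rule that named Cavin2 required. Of all tested genes 31.8% had no overlap.

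Factors and receptors of the lineage moved the same way. Gata1, the main factor of megakaryocytes and erythrocytes, was at 115, 64.6 and 142 CPM in HSC and 1.82, 1.12 and 2.33 CPM in LMPP (log2 difference -5.94 ± 0.48, adjusted p = 3.75e-05). Mmrn1, a multimerin of platelet granules, was at 810.1, 826 and 675 CPM and 39.2, 41.1 and 27.3 CPM (log2 difference -4.43 ± 0.25, adjusted p = 5.48e-06). Treml1, a receptor of platelet granules, had 24.8, 14.51 and 22.5 CPM in HSC and none in LMPP, a fall of at least 185-fold (adjusted p = 5.95e-05). The smaller differences of the list belonged to genes that leukocytes also use: Fermt3, the integrin activator kindlin-3, at 932, 634 and 891 CPM in HSC and 327, 326 and 348 CPM in LMPP (log2 difference -1.29 ± 0.17, adjusted p = 0.000659), and Rap1b, a GTPase of integrin activation (log2 difference -1.31 ± 0.27, adjusted p = 0.00849). All 7 tested markers of platelets and mature megakaryocytes were lower; their summed level was 676, 233 and 249 CPM in HSC 1 to 3 and 5.66 to 8.54 CPM in LMPP. HSC 1 thus had the highest sum of these markers, and what part platelets or megakaryocytes in the sorted cells have in these differences was not tested.

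The Pf4 promoter is shown because the HSC list had a region over it (signal 12.5 in the authors' units) and the LMPP list had none (chr5:90772185-90772484, plus strand, GRCm38.p6). Outside this window the LMPP list had a region of signal 5.6, with its middle 819 bases before the start. Within 1000 bases of the start Pf4 thus had a region in both lists. Capitals mark the ETS letters, found on the other strand from 10 to 3 bases before the start, and the GATA letters (AGATAA) from 36 to 41 bases after it.
Pf4: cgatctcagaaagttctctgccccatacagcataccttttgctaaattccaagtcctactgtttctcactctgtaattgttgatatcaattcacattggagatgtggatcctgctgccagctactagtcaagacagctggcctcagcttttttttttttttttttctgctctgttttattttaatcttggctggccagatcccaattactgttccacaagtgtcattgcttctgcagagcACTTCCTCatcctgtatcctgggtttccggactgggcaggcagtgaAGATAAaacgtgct
The GATA letters occur in 11.2% of all RefSeq promoter windows.

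Of 23 tested erythroid genes (25 listed) 11 were lower and none was higher (median log2 difference -2.10, or -1.86 at the bound). Epor, the erythropoietin receptor, was at 48.1, 26.1 and 40.1 CPM in HSC and 0.253, 0.42 and 0.95 CPM in LMPP (log2 difference -6.09 ± 0.69, adjusted p = 0.000268). Klf1, an erythroid factor, was at 17.8, 10.5 and 38.0 CPM and 0, 0.728 and 1.31 CPM (log2 difference -4.96 ± 1.01, adjusted p = 0.00759). Car2, carbonic anhydrase 2, was the erythroid gene with the most counts, at 2054, 1962 and 3723 CPM in HSC and 683, 549 and 1022 CPM in LMPP (log2 difference -1.78 ± 0.41, adjusted p = 0.0146), and its call was lost without LMPP 1 (0.06) or LMPP 2 (0.054). Aqp1, a water channel of red cells and vessels, was at 84.1, 58.1 and 46.9 CPM and 0.707, 0.981 and 1.60 CPM (log2 difference -5.82 ± 0.41, adjusted p = 1.77e-05). These genes were lower in every LMPP library, which the rules that named Epor, Car2 and Aqp1 required. Of 8 tested hemoglobin genes none was called by edgeR or by DESeq2 (0 below 0.05 before adjustment). The hemoglobin list summed to 46.4, 77.1 and 164 CPM in HSC and 51.7, 77.2 and 37.6 CPM in LMPP. Hemoglobin genes are near-identical copies whose reads cannot be assigned with certainty.

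Of 28 regulators of stem cell fate, 15 were lower in LMPP and none was higher (median log2 difference -1.66). Gata2, required for HSC survival, was at 579, 446 and 289.7 CPM in HSC 1 to 3 and 49.4, 54.0 and 33.1 CPM in LMPP 1 to 3 (log2 difference -3.27 ± 0.30, adjusted p = 8.1e-05). Meis1, a homeobox partner of Hox proteins, was at 443, 500.2 and 296 CPM and 154, 168 and 99.5 CPM (log2 difference -1.56 ± 0.25, adjusted p = 0.00187). Mecom, the long-term HSC factor Evi1, was at 135, 170.5 and 50.7 CPM and 26.1, 25.5 and 13.6 CPM (log2 difference -2.45 ± 0.47, adjusted p = 0.0056). In all 3 genes the replicate 3 library was the lowest of its group. The groups did not overlap, as for 31.8% of all tested genes. Mycn, a Myc family factor, was at 369.9, 352 and 441 CPM in HSC and 53.5, 48.6 and 60.2 CPM in LMPP (log2 difference -2.84 ± 0.22, adjusted p = 2.72e-05). Mllt3, a transcription elongation factor, was at 109, 166 and 114 CPM and 14.2, 16.4 and 10.1 CPM (log2 difference -3.26 ± 0.26, adjusted p = 3.8e-05). Ndn, an imprinted growth suppressor, fell from 57.4, 76.2 and 79.5 CPM to 6.52, 4.15 and 7.73 CPM (log2 difference -3.54 ± 0.30, adjusted p = 5.63e-05). Hlf, a leucine zipper factor of HSC, did not pass the test, with 157, 239.9 and 65.2 CPM in HSC and 102, 90.1 and 46.2 CPM in LMPP (log2 difference -0.95, adjusted p = 0.175), and passed without HSC 3 (adjusted p = 0.024) and with the adult libraries and a replicate block (0.015). Lmo2 and Erg, named after their values were seen, were not called. Lmo2 was at 804, 888 and 1020 CPM in HSC and 776, 785 and 813 CPM in LMPP, and Erg at 8.72, 16.1 and 14.1 CPM and 16.4, 15.9 and 14.7 CPM (adjusted p = 0.423 and 0.686). They do not stand for all 13 listed regulators that were not called, since 21 of the 28 were lower without the 3 libraries that stood apart.

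On the surface, 20 of 26 listed stem cell genes were lower and none was higher (median log2 difference -2.92); Slamf1, chosen by the sort, and Vwf, named above, are among them. Tek, the receptor of angiopoietins, was at 99.0, 99.0 and 69.2 CPM in HSC and 2.22, 2.49 and 1.01 CPM in LMPP (log2 difference -5.54 ± 0.48, adjusted p = 5.81e-05). Procr, the protein C receptor that marks long-term HSC, was at 46.4, 85.7 and 59.4 CPM and 8.79, 15.5 and 11.03 CPM (log2 difference -2.44 ± 0.43, adjusted p = 0.00341). Esam, an adhesion molecule of HSC and vessels, was at 169, 186 and 231 CPM and 4.45, 7.09 and 3.27 CPM (log2 difference -5.30 ± 0.53, adjusted p = 0.000135). All 3 had no overlap, as had 31.8% of all tested genes, and the rule that named Tek required it. The tetraspanin Cd9 was at 324, 215 and 377 CPM and 52.8, 42.4 and 56.5 CPM (log2 difference -2.59 ± 0.22, adjusted p = 5.63e-05). Tgfbr3, the accessory TGF-beta receptor, was at 108, 112 and 13.4 CPM and 2.78, 3.84 and 2.52 CPM (log2 difference -4.67 ± 0.74, adjusted p = 0.00187), again lowest in HSC 3.

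Several of these genes are shared with vessels. An endothelial-type list had 13 of 26 tested genes lower and 4 higher, or 2 higher with the adult libraries alone (median log2 difference -1.78, or -1.31 at the bound). Jam3, a junction adhesion molecule, was at 23.7, 26.3 and 26.4 CPM in HSC and 1.31, 2.24 and 1.01 CPM in LMPP (log2 difference -4.05 ± 0.31, adjusted p = 2.59e-05), and Rhoj, a GTPase of vessel growth, had 19.02, 24.4 and 19.1 CPM in HSC and none in LMPP, a fall of at least 187-fold (adjusted p = 0.000821). Cd34, which adult mouse LMPP are known to carry and long-term HSC to lack, went the other way, from 207, 243 and 311 CPM to 1752, 1781 and 1913 CPM (log2 difference 2.84 ± 0.17, adjusted p = 7.6e-06). Of 6 tested caveolae genes (7 listed) 4 were lower and none was higher; beside Cavin2, Cavin1 was at 58.3, 57.4 and 24.4 CPM in HSC and 3.39, 2.91 and 0.917 CPM in LMPP (log2 difference -4.29 ± 0.63, adjusted p = 0.00122). Cavin3 was at 68.6, 63.7 and 82.6 CPM and 8.29, 7.12 and 9.37 CPM (log2 difference -3.12 ± 0.59, adjusted p = 0.00496). Of 21 tested imprinted genes (28 listed) 10 were lower and none was higher (median log2 difference -2.55, or -1.29 at the bound). Meg3, a maternally expressed noncoding RNA, was at 10.5, 16.5 and 9.57 CPM in HSC and 0, 0.056 and 0 CPM in LMPP (adjusted p = 7.46e-05). Cdkn1c, the imprinted cell cycle inhibitor p57, was at 58.9, 55.8 and 101.1 CPM and 5.31, 4.90 and 4.39 CPM (log2 difference -3.89 ± 0.35, adjusted p = 7.29e-05).

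Hoxa and Hoxb genes did not move as 1 block. Of 15 tested (19 listed), 5 were lower and 1 was higher (median log2 difference -0.97), and 2 to 4 were lower when 1 adult library was left out. Among all tested genes 9.33% were lower and 7.76% higher. Hoxb5, which marks long-term HSC, was at 9.13, 10.7 and 10.4 CPM in HSC and 0.606, 0.392 and 0.589 CPM in LMPP (log2 difference -4.25 ± 0.78, adjusted p = 0.00418). Hoxb2 was at 13.4, 13.2 and 19.5 CPM and 0.455, 1.57 and 1.77 CPM (log2 difference -3.58 ± 0.82, adjusted p = 0.0137), with an adjusted p of 0.053 without LMPP 1. Hoxa7 was the higher member, at 17.4, 19.2 and 18.7 CPM in HSC and 25.8, 27.7 and 37.9 CPM in LMPP (log2 difference 0.72 ± 0.19, adjusted p = 0.0282). Its call was lost with the adult libraries alone (adjusted p = 0.099) and without HSC 1 (0.09), HSC 2 (0.066) or LMPP 3 (0.09), and 2 genes of the list were higher without HSC 3.

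**Figure D3:**
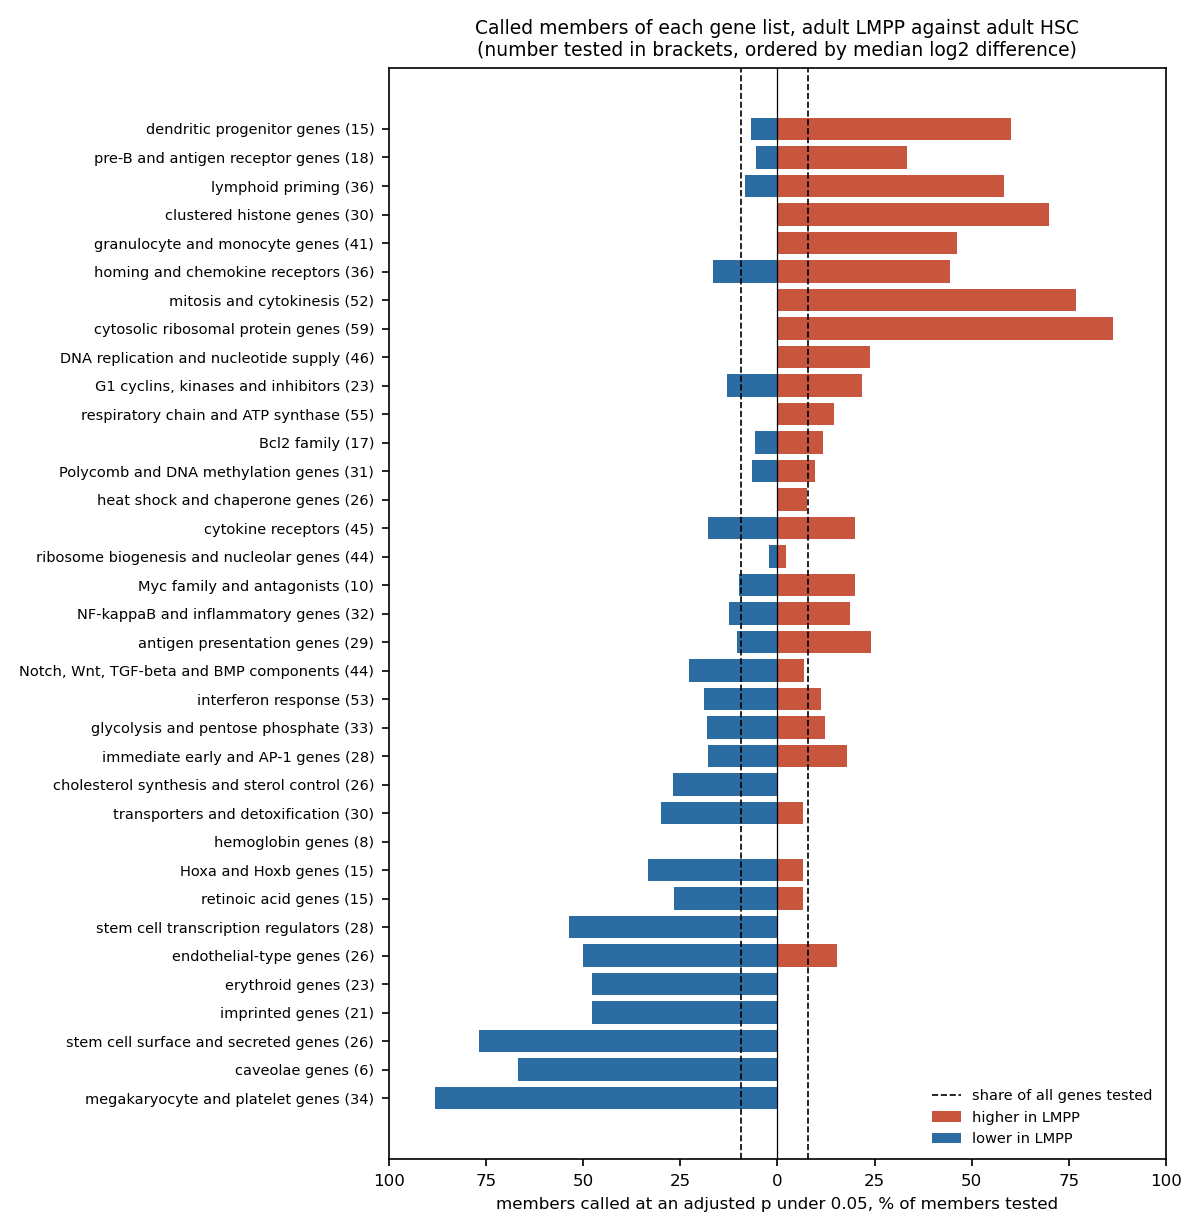
For each gene list, the share of its tested members that were higher (right) or lower (left) in LMPP, with dashed lines at the shares of all tested genes (7.76% and 9.33%). The megakaryocyte, stem cell and caveolae lists lie to the left, and the ribosomal protein, mitosis, histone and lymphoid lists to the right.

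Genes of cell division were higher in LMPP. Of 52 tested genes of mitosis and cytokinesis, 40 were higher and none was lower, with a median log2 difference of 0.97, or nearly 2-fold. Ect2, which starts the contractile ring, was at 29.6, 32.2 and 33.1 CPM in HSC and 199, 155 and 148 CPM in LMPP (log2 difference 2.40 ± 0.17, adjusted p = 1.91e-05). Kif23, a motor of the midzone, was at 55.2, 46.1 and 50.9 CPM and 139, 132 and 143 CPM (log2 difference 1.44 ± 0.15, adjusted p = 0.000173). Mki67, the Ki-67 gene, was at 86.6, 77.9 and 74.4 CPM and 197, 142 and 142 CPM (log2 difference 1.01 ± 0.26, adjusted p = 0.0221), and its call was lost without HSC 1 (0.052), HSC 2 (0.069) or LMPP 1 (0.087). Their groups did not overlap, as for 31.8% of all tested genes, and the rule that named Ect2 and Kif23 required it. LMPP 1 had the highest level of Ect2 and Mki67. The count of higher genes in the list was 20 without HSC 2 or without LMPP 1, 25 without LMPP 3, and 26 with the adult libraries alone.

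DNA replication genes moved less. Of 46 tested, 11 were higher and none was lower, with a median log2 difference of 0.45. Cdc45, a part of the replicative helicase, was at 49.5, 52.9 and 56.6 CPM in HSC and 89.6, 89.8 and 91.5 CPM in LMPP (log2 difference 0.77 ± 0.13, adjusted p = 0.00328). Mcm7, another helicase subunit, was at 422, 360.4 and 347 CPM and 529, 582 and 550.1 CPM (log2 difference 0.56 ± 0.12, adjusted p = 0.00865), with an adjusted p of 0.053 in the adult libraries alone. The call on this list depended strongly on the model and the libraries: 2 genes were higher with the adult libraries alone, 3 without HSC 2, 7 without LMPP 1 or without LMPP 3, 19 without HSC 3, 25 without the 3 libraries that stood apart and 30 with the adult libraries and a replicate block. None was lower under these settings.

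Clustered histone genes, which are copied during DNA synthesis and mostly lack a poly(A) tail, had 21 of 30 tested members higher and none lower (median log2 difference 1.56). Hist1h2ao was at 1303, 908 and 1137 CPM in HSC and 3676, 2146 and 4019 CPM in LMPP (log2 difference 1.56 ± 0.26, adjusted p = 0.00254), lowest in LMPP 2 among the LMPP libraries. Hist1h2ap and Hist1h2ag differed by 1.55 ± 0.26 and 1.59 ± 0.28 on the log2 scale. These genes are near-identical copies, so their values are not separate measurements. The count of higher members was 10 without LMPP 1 and 11 without HSC 2 or with the adult libraries alone. H2afy, the separate gene of the variant macroH2A1, showed a narrower spread, at 457, 483 and 580.5 CPM in HSC and 4020, 3940 and 3999 CPM in LMPP (log2 difference 2.98 ± 0.12, adjusted p = 1.38e-06). Hmgb2, a chromatin protein of dividing cells, was at 797, 599 and 976 CPM and 1616, 1286 and 2391 CPM (log2 difference 1.16 ± 0.25, adjusted p = 0.0103).

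Inhibitors of the cell cycle went in both directions. Among 23 tested G1 cyclins, kinases and inhibitors, 5 were higher (3 without HSC 1 or LMPP 1, 8 with the adult libraries and a replicate block) and 3 lower (5 without the 3 libraries that stood apart). The shares of all tested genes were 7.76% higher and 9.33% lower. Cdkn1c fell, as given above, while Cdkn1a, the inhibitor p21, was at 3.74, 4.85 and 3.95 CPM in HSC and 28.6, 24.5 and 25.5 CPM in LMPP (log2 difference 2.65 ± 0.31, adjusted p = 0.000299). Ccnd3, a D-type cyclin, was at 405, 353 and 404 CPM and 185, 199.9 and 236 CPM (log2 difference -0.91 ± 0.14, adjusted p = 0.00201). Cdk6, a kinase that sets the speed of exit from quiescence, was at 102, 106 and 45.4 CPM and 206, 236 and 122 CPM (log2 difference 1.15 ± 0.34, adjusted p = 0.0428), with both replicate 3 libraries low. Its call was lost with the adult libraries alone (adjusted p = 0.11) and when any of the 6 other than LMPP 3 was left out (0.058 to 0.13). Within the Myc family of 10 genes, 2 were higher and 1 was lower: Mycn fell whereas Myc was at 472, 373 and 522 CPM in HSC and 594, 659.8 and 736 CPM in LMPP (log2 difference 0.54 ± 0.14, adjusted p = 0.0271), and Mycl had no count in HSC and 2.63, 1.26 and 1.11 CPM in LMPP (adjusted p = 0.00147). The Myc call was lost with the adult libraries alone (adjusted p = 0.093) and without HSC 1 (0.063), HSC 2 (0.082), LMPP 2 (0.062) or LMPP 3 (0.082). In the Myc family 1 gene was higher without HSC 1, HSC 2 or LMPP 3, and 2 were lower without HSC 3.

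Cytosolic ribosomal protein genes were higher in LMPP by a small and even amount. Of 59 tested, 51 were higher and none was lower, with a median log2 difference of 0.51. Rpsa, a small subunit protein, was at 427, 435 and 384 CPM in HSC and 720.1, 627 and 674 CPM in LMPP (log2 difference 0.70 ± 0.11, adjusted p = 0.00148). Rps24 was at 159.6, 183 and 170.2 CPM and 302, 276 and 275 CPM (log2 difference 0.74 ± 0.11, adjusted p = 0.00148). Without LMPP 1 the count was 21, without HSC 1 it was 22, and with the adult libraries alone 14. Many ribosomal protein genes have processed copies elsewhere in the genome whose reads may be shared with them. Of 44 tested genes that build ribosomes 1 was higher and 1 lower, below the 7.76% and 9.33% of all tested genes. Npm1 was the higher, at 503, 543 and 607 CPM and 734, 716 and 869 CPM (log2 difference 0.49 ± 0.14, adjusted p = 0.0371). Bysl was the lower, at 119.5, 105 and 134 CPM and 69.3, 77.2 and 89.4 CPM (log2 difference -0.60 ± 0.15, adjusted p = 0.0224). The list median was 0.07. Neither call was stable: Npm1 was lost when any adult library other than HSC 3 was left out (adjusted p from 0.052 to 0.13), and Bysl without HSC 1 (0.059), LMPP 1 (0.089) or LMPP 2 (0.063). The number of higher genes in this list was 4 without HSC 3, 6 without the 3 libraries that stood apart and 8 with the adult libraries and a replicate block.

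Of 55 tested genes of the respiratory chain and ATP synthase, 8 were higher and none was lower (median log2 difference 0.33). Of all tested genes 7.76% were higher and 9.33% lower. Ndufa4, a subunit of cytochrome oxidase, led them, at 197, 194 and 270.2 CPM in HSC and 644, 485 and 869 CPM in LMPP (log2 difference 1.60 ± 0.22, adjusted p = 0.000879). Cox5a, another subunit, was at 147, 142 and 184 CPM and 258, 238 and 309.9 CPM (log2 difference 0.77 ± 0.16, adjusted p = 0.00937). The count ran from 2 without HSC 1, 3 without LMPP 1 or LMPP 3 and 4 without HSC 2 to 25 without HSC 3 and 31 without the 3 libraries that stood apart, and with the adult libraries it was 2 without and 35 with a replicate block. Glycolysis was mixed, with 4 of 33 genes higher (8 without the 3 libraries that stood apart, 7 with DESeq2) and 6 lower (13 lower with the adult libraries and a replicate block, 3 without LMPP 1 or without LMPP 3). The glucose transporter Slc2a3 was at 175, 169 and 117 CPM in HSC and 36.7, 61.8 and 28.7 CPM in LMPP (log2 difference -1.86 ± 0.27, adjusted p = 0.00115). Pfkp, a phosphofructokinase, was at 155, 132 and 191 CPM and 67.7, 85.3 and 84.6 CPM (log2 difference -1.01 ± 0.18, adjusted p = 0.00395). Pgam1, a later enzyme, was at 218, 246 and 306 CPM and 472, 469.9 and 509 CPM (log2 difference 0.91 ± 0.14, adjusted p = 0.00148).

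Cholesterol synthesis had 7 of 26 genes lower and none higher (median log2 difference -0.53); the count was 2 without LMPP 1 and 3 without HSC 2 or with the adult libraries alone. Sqle, squalene epoxidase, was at 148, 139 and 156 CPM in HSC and 56.4, 80.9 and 65.7 CPM in LMPP (log2 difference -1.13 ± 0.16, adjusted p = 0.00108). Lss, the next enzyme, was at 42.5, 38.5 and 42.8 CPM and 12.9, 17.99 and 15.8 CPM (log2 difference -1.40 ± 0.33, adjusted p = 0.0149), with an adjusted p of 0.065 without LMPP 1. Genes of retinoic acid, which favours HSC dormancy, had 4 of 15 tested members lower and 1 higher (20 listed). Among all tested genes 9.33% were lower and 7.76% higher. Without the 3 libraries that stood apart 7 were lower and 4 higher, and without HSC 3 or LMPP 3 there were 2 higher. Aldh1a1, which makes retinoic acid, was at 97.3, 132 and 131 CPM in HSC and 0.354, 0 and 0.884 CPM in LMPP (log2 difference -8.19 ± 0.93, adjusted p = 0.00115), and its receptor Rarb was at 16.4, 16.6 and 14.8 CPM and 0.303, 0.28 and 0 CPM (log2 difference -6.37 ± 0.84, adjusted p = 0.000694). Dhrs3, which returns retinal to retinol, was the higher member of the 11-library fit, at 9.26, 6.77 and 8.71 CPM and 66.5, 62.1 and 74.7 CPM (log2 difference 3.04 ± 0.21, adjusted p = 1.57e-05).

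Of 30 transporters and detoxifying enzymes 9 were lower (15 with the adult libraries and a replicate block) and 2 higher (5 without HSC 3 or without the 3 libraries that stood apart). The shares of all tested genes were 9.33% lower and 7.76% higher. Abcg2, the pump behind the dye-excluding side population of HSC, was at 161, 175 and 299 CPM in HSC and 55.6, 54.4 and 64.7 CPM in LMPP (log2 difference -1.86 ± 0.25, adjusted p = 0.000836). Gstm2, a glutathione transferase, was at 25.04, 21.2 and 43.2 CPM and 0, 0.392 and 0.229 CPM (log2 difference -7.02 ± 1.00, adjusted p = 0.00108). Sult1a1, a sulfotransferase, was at 50.7, 87.2 and 109 CPM and 0.808, 0.56 and 0.786 CPM (log2 difference -6.85 ± 0.74, adjusted p = 0.000211). The 3 genes were named under a rule that required no overlap between the groups, which 31.8% of all tested genes met.

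Receptors for cytokines split evenly, 9 of 45 tested being higher and 8 lower, around a median log2 difference of 0.11. The lower ones held Epor, and the higher ones Flt3, Il7r and Csf3r, given above, and Il1r1, the interleukin 1 receptor, at 11.3, 3.71 and 3.67 CPM in HSC and 87.5, 113 and 45.2 CPM in LMPP (log2 difference 3.72 ± 0.60, adjusted p = 0.00202). Ifnar2, a chain of the type I interferon receptor, was at 64.3, 77.4 and 58.2 CPM and 187, 199 and 199 CPM (log2 difference 1.55 ± 0.14, adjusted p = 8.32e-05). Without the 3 libraries that stood apart 14 receptors were higher, with the adult libraries and a replicate block 16, and without LMPP 1 or LMPP 2 there were 5 lower. Of 36 tested homing and chemokine receptors (38 listed), 16 were higher and 6 lower (median log2 difference 1.24). Beside Ccr7 and Ccr9, Itgal, the CD11a integrin of leukocytes, was at 7.54, 6.35 and 6.01 CPM in HSC and 84.2, 104 and 34.2 CPM in LMPP (log2 difference 3.48 ± 0.45, adjusted p = 0.000626). Cxcr4, the receptor for the marrow chemokine Cxcl12, was at 7.67, 9.89 and 5.38 CPM and 24.2, 20.7 and 14.1 CPM (log2 difference 1.36 ± 0.30, adjusted p = 0.0116). Of 44 tested Notch, Wnt, TGF-beta and BMP components 3 were higher and 10 lower, beside 7.76% and 9.33% of all tested genes. Dtx4, a Notch pathway ligase, was at 1.43, 0.423 and 1.46 CPM and 24.1, 28.1 and 14.2 CPM (log2 difference 4.30 ± 0.59, adjusted p = 0.000884). Fzd8, a Wnt receptor, was at 12.8, 13.7 and 10.2 CPM and 0.606, 1.26 and 0 CPM (log2 difference -4.27 ± 0.88, adjusted p = 0.00789).

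Immune response genes showed no shared direction. Antigen presentation had 7 of 29 tested genes higher and 3 lower (median log2 difference -0.11), and 3 higher without HSC 1, HSC 2 or LMPP 3 and 4 without LMPP 1. The number of lower genes was 1 without HSC 2, LMPP 1 or LMPP 2, 5 without the 3 libraries that stood apart, and with the adult libraries 0 without and 7 with a replicate block. H2-Ob, a regulator of class II loading, was at 10.3, 15.0 and 16.2 CPM in HSC and 137, 150.4 and 204 CPM in LMPP (log2 difference 3.56 ± 0.30, adjusted p = 4.63e-05). Ctss, the protease that trims the class II chain, was at 4.57, 8.56 and 10.5 CPM and 42.4, 46.0 and 79.4 CPM (log2 difference 2.83 ± 0.41, adjusted p = 0.0011); the class I members H2-Q6 and H2-Q7 are near-identical copies and uncertain. Of 53 interferon response genes 6 were higher and 10 lower (median log2 difference -0.21), and 16 were lower without the 3 libraries that stood apart, 21 with the adult libraries and a replicate block and 6 without LMPP 1 or LMPP 2. The number of higher ones was 1 without HSC 1 and 3 without LMPP 1, without LMPP 3 or with the adult libraries alone. Gbp9, a guanylate-binding protein, was at 29.5, 40.5 and 26.3 CPM and 4.04, 6.89 and 10.6 CPM (log2 difference -2.15 ± 0.36, adjusted p = 0.0025). Ifi27 was among the higher, at 58.5, 70.8 and 85.7 CPM and 123, 145 and 154 CPM (log2 difference 0.97 ± 0.17, adjusted p = 0.00354). The inflammatory list had 6 higher (3 without LMPP 1) and 4 lower (1 without HSC 1, 2 without HSC 2, LMPP 1 or LMPP 2) of 32 tested. The immediate early list had 5 higher and 5 lower of 28 tested. Leaving out any 1 adult library gave 1 to 3 higher (1 without HSC 2), leaving out the 3 that stood apart gave 2, and the lower count was 2 without LMPP 1 and 3 without HSC 2 or LMPP 3. Cd69, an early activation antigen, was at 10.1, 9.76 and 16.5 CPM and 100.3, 64.0 and 139.6 CPM (log2 difference 3.06 ± 0.38, adjusted p = 0.000503). Egr1, an immediate early factor that keeps HSC quiescent, was at 51.4, 34.4 and 24.5 CPM and 6.47, 5.43 and 8.35 CPM (log2 difference -2.44 ± 0.50, adjusted p = 0.0078). Among 26 chaperone genes 2 were higher, near the share of all tested genes (7.76%). Hspa4 was at 159, 159.7 and 178 CPM and 251, 259 and 229 CPM (log2 difference 0.57 ± 0.12, adjusted p = 0.00729). Cct2 was at 157, 159 and 154 CPM and 234, 242 and 237 CPM (log2 difference 0.60 ± 0.10, adjusted p = 0.00296). Without the 3 libraries that stood apart 6 chaperone genes were higher, and with the adult libraries and a replicate block 10 were higher and 2 lower.

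Survival and chromatin genes were called about as often as all tested genes, of which 17.1% were called in either direction. Of 17 tested Bcl2 family genes (18 listed), Bok and Pmaip1, which promote cell death, were higher and Bcl2l1, which blocks it, was lower, at 58.0, 48.6 and 59.2 CPM in HSC and 20.2, 21.96 and 14.47 CPM in LMPP (log2 difference -1.55 ± 0.21, adjusted p = 0.000727). Of 31 tested Polycomb and DNA methylation genes (32 listed) 3 were higher and 2 lower, and 9 were higher without the 3 libraries that stood apart, 6 without HSC 3 and 10 with the adult libraries and a replicate block. The lower count was 4 without HSC 3 and 1 without HSC 1, HSC 2, LMPP 1 or LMPP 3. Ezh2, the enzyme that methylates histone H3 in proliferating cells, was at 100.7, 85.5 and 102 CPM and 164, 139.8 and 184 CPM (log2 difference 0.76 ± 0.15, adjusted p = 0.00649). Cbx7, a Polycomb reader of HSC, was at 34.1, 32.0 and 28.8 CPM and 17.8, 17.5 and 14.3 CPM (log2 difference -0.94 ± 0.20, adjusted p = 0.00844).

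Beyond the lists, the 12 genes with the largest fitted rise and the 12 with the largest fitted fall, taken from called genes that averaged 5 CPM or more in the adult libraries without overlap, were at or near 0 in the other group. Ranking by fitted size favours such genes, so this follows from the rule. Clec2i, a lectin-like ligand, had no count in HSC and 27.0, 25.2 and 34.0 CPM in LMPP, at least 355-fold higher (adjusted p = 0.000264). Kcng1, a potassium channel subunit, likewise had none in HSC and 36.3, 28.8 and 12.97 CPM in LMPP, at least 322-fold higher (adjusted p = 0.000626), and Sema3d, a secreted semaphorin, was at least 164-fold higher (adjusted p = 0.00225). Rasal1, a Ras GTPase activator, was at 0, 0.0651 and 0 CPM in HSC and 11.9, 15.0 and 12.1 CPM in LMPP (adjusted p = 0.000667). All 12 falls were at 0 in the 3 LMPP libraries: beside Cavin2, Rhoj and Treml1 these were Evc2, Efna1, Plscr2, Podxl, P3h2, Smtnl1, Pde10a, Ocln and Pls1. Evc2, a hedgehog signalling protein of the cilium, was at 35.8, 27.7 and 10.1 CPM in HSC (at least 220-fold lower, adjusted p = 8.1e-05). Efna1, an ephrin, was at 13.9, 24.8 and 32.3 CPM (at least 212-fold lower, adjusted p = 0.000909). Podxl, a sialomucin of HSC and vessels, spread from 2.21 CPM in HSC 3 to 27.8 CPM in HSC 2. Among lower genes with many counts, Apoe, the lipid carrier, was at 806, 800.4 and 1202 CPM in HSC and 20.5, 14.4 and 25.97 CPM in LMPP (log2 difference -5.53 ± 0.43, adjusted p = 3.09e-05). Serpina3g, a protease inhibitor of blood progenitors, was at 621, 718 and 1171 CPM and 108, 158 and 141 CPM (log2 difference -2.62 ± 0.38, adjusted p = 0.00113). Adgrg1 (GPR56) and Muc13 were also lower (log2 difference -1.08 ± 0.29, adjusted p = 0.0267 and log2 difference -1.04 ± 0.30, adjusted p = 0.036), with both calls lost without HSC 1, HSC 2, LMPP 1 or LMPP 3 (adjusted p from 0.056 to 0.12).

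Markers of other cell types were summed in each library. Their calls stand beside 7.76% of all tested genes higher in LMPP and 9.33% lower. Of 11 hepatocyte markers, Alb, Ttr, Fga and Fgb had no count in any adult library, and the 2 higher in LMPP were Trf, transferrin, at 43.8, 42.4 and 61.6 CPM in HSC and 209, 263 and 268 CPM in LMPP (log2 difference 2.32 ± 0.27, adjusted p = 0.000324), and Ahsg; the whole list summed to 54.4 to 82.3 CPM in HSC and 220.5 to 284 CPM in LMPP. Summed macrophage markers were at 19.6 to 47.6 CPM in HSC and 50.2 to 63.7 CPM in LMPP, with 2 of 11 higher, and neutrophil markers summed to at most 10.02 CPM, reached in HSC 3, with none of 8 tested called by edgeR, and 1 below 0.05 before adjustment. B cell markers summed to 37.0 to 81.6 CPM in HSC and 62.6 to 91.9 CPM in LMPP with 1 of 7 tested higher. For T and NK cells the sums were 63.6 to 131 CPM and 261 to 368 CPM, of which Nkg7 made up most, at 65.3, 53.7 and 119 CPM and 257, 278 and 363 CPM (log2 difference 1.91 ± 0.29, adjusted p = 0.00148). Endothelial and stromal markers summed to 22.8 to 33.6 CPM in HSC and 26.5 to 55.2 CPM in LMPP, with 1 of 6 tested higher and 2 lower. Mast cell, basophil and eosinophil markers, of which Gata2 was the 1 called of 8 tested, summed to 424 to 588 CPM in HSC and 73.8 to 108 CPM in LMPP, and without the 3 libraries that stood apart 3 of them were higher and 2 lower. Erythroblast markers, with Car2 and Klf1 lower of 11 tested, summed to 2060 to 3968 CPM in HSC and 633 to 1070 CPM in LMPP. The part of such cells in the differences above was not tested.

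The same comparison in fetal liver, in which the sort did not use CD11b, shares no library with the adult one and rests on 2 HSC and 3 LMPP libraries. There 1208 genes were higher in LMPP (8.21% of those tested) and 1450 lower (9.85%), or 18.1% in all. Of the adult calls, 565 of the higher genes were higher in the fetus too (49.4% of the adult and 46.8% of the fetal calls), and 746 of the lower genes were lower (54.3% and 51.4%), while 17 genes were called in opposite directions. The difference between the adult and the fetal difference was called for 137 genes, 0.931% of those tested, and for 86 with the replicate number as a block; the count was 32 without fetal HSC 2, 45 without fetal HSC 1, 64 without adult LMPP 1, 85 without adult HSC 1, 89 without adult HSC 2, and 789 without the 3 libraries that stood apart. Of the adult calls 104 carried such a difference.

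Genes gained by LMPP in the adult and not to the same extent in the fetus were led by Slc16a11, a monocarboxylate transporter. It was at 0.571, 1.11 and 0.349 CPM in adult HSC and 63.4, 62.8 and 80.5 CPM in adult LMPP, against 3.23 and 3.07 CPM in fetal HSC and 0.231, 0.222 and 0 CPM in fetal LMPP (adult minus fetal log2 difference 10.91 ± 0.85, adjusted p = 0.000763). It thus moved in opposite directions at the 2 ages. Postn, the matrix protein periostin, had no count in adult HSC and 6.17, 4.71 and 7.60 CPM in adult LMPP, and it was at 19.3 and 27.7 CPM in fetal HSC and 24.3, 23.6 and 18.1 CPM in fetal LMPP (adjusted p of the difference 0.000763). Wfdc17, a secreted antiprotease-like protein, was at 1.01, 2.05 and 3.47 CPM and 127, 139 and 192 CPM in adult HSC and LMPP, and at 30.2 and 25.99 CPM and 61.1, 41.6 and 30.8 CPM in the fetal ones (5.44 ± 0.59, adjusted p = 0.00246). Ddx4, an RNA helicase best known from germ cells, had the same pattern, at 0.444, 2.67 and 1.40 CPM and 54.7, 40.3 and 104 CPM in the adult and 35.2 and 37.2 CPM and 61.0, 26.2 and 27.7 CPM in the fetus (5.38 ± 0.85, adjusted p = 0.0168, or 0.051 with the block, 0.062 without fetal HSC 1, 0.099 without fetal HSC 2 and 0.051 without fetal LMPP 3). For Wfdc17 and Ddx4 the adult HSC libraries were the ones that stood low. For Postn the adult HSC and the adult LMPP libraries all lay below every fetal library. Cd53, whose adult values are given above, differed by 3.69 ± 0.32 (adjusted p = 0.0011). Dntt had no count in any fetal LMPP library, yet its difference between ages did not pass the test (adjusted p = 0.109).

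Genes lost by LMPP in the adult more than in the fetus included members of the megakaryocyte list. Cavin2 was at 28.2 and 13.5 CPM in fetal HSC and 4.85, 6.02 and 11.2 CPM in fetal LMPP, where its difference was not called (log2 difference -1.51, adjusted p = 0.0517; adjusted p of the difference between ages 0.00202). Pf4 was at 26.4 and 9.27 CPM in fetal HSC and 19.5, 8.13 and 3.06 CPM in fetal LMPP (-7.30 ± 1.19, adjusted p = 0.019), a difference lost without adult LMPP 1 (0.064), fetal HSC 1 (0.077) or fetal HSC 2 (0.17). Fetal HSC thus lay below, and fetal LMPP above, their adult counterparts for both genes. Mmrn1 differed less in the fetus, where the log2 difference was -1.87 beside -4.43 in the adult (adjusted p of the difference 0.00747). The median log2 difference of the megakaryocyte and platelet list was -3.93 in the adult and -1.75 in the fetus. Mycn and Myc were both shifted, by -1.93 ± 0.31 and -1.39 ± 0.22: Myc rose more in fetal LMPP (1.93) than in adult LMPP (0.54).

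**Figure D4:**
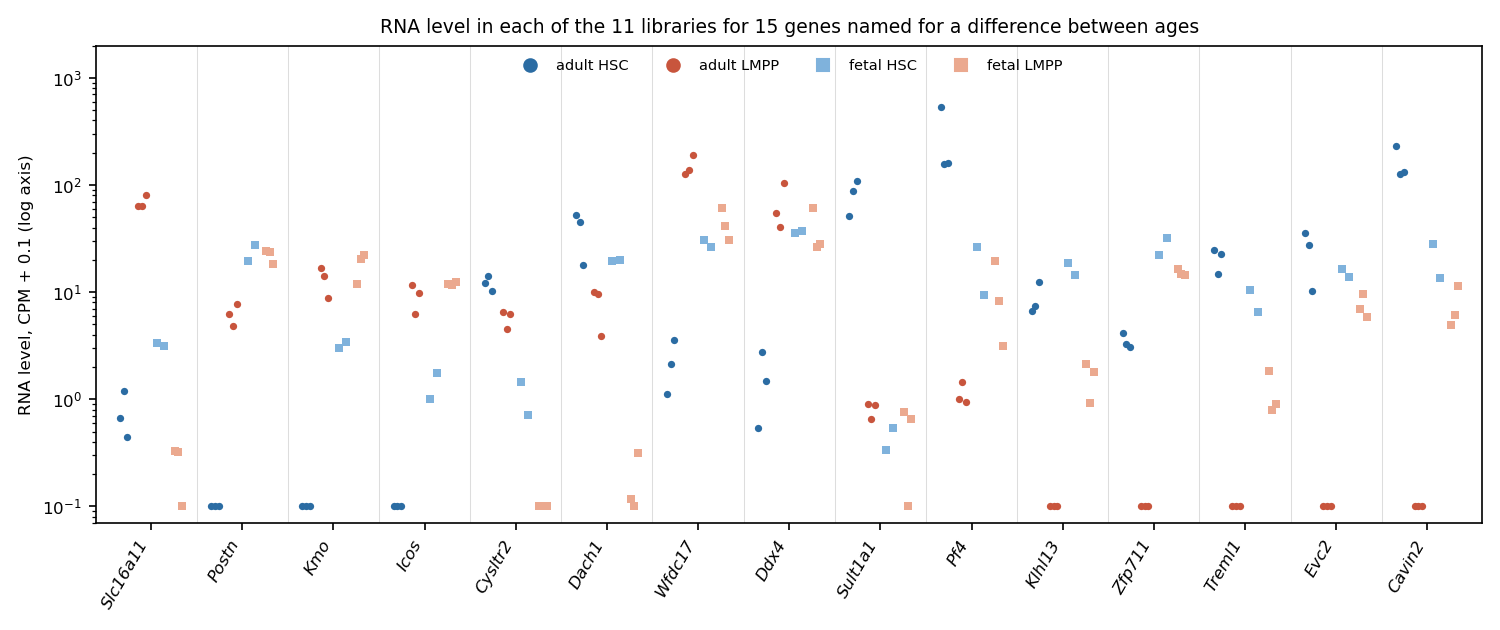
RNA level (vertical axis, CPM plus 0.1, log scale) in each of the 11 libraries for 15 of the genes with the largest called difference between the adult and the fetal comparison, ordered from the most positive difference to the most negative; circles are adult and squares fetal libraries, blue HSC and red LMPP. Slc16a11 goes in opposite directions at the 2 ages, and Cavin2, Treml1 and Pf4 lose less in fetal LMPP.

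The Sult1a1 and Postn promoters are shown because both genes differed between the ages and an accessible region overlapped part of each window in the adult HSC list only. The Sult1a1 difference between ages was lost without fetal HSC 1 (adjusted p = 0.12), fetal HSC 2 (0.14) or fetal LMPP 1 (0.053). Sult1a1 was high in adult HSC alone (0.236 and 0.439 CPM in fetal HSC and 0.657, 0 and 0.552 CPM in fetal LMPP). It had a region of signal 7.0 that reached into its window, chr7:126676369-126676668, minus strand. Postn, whose RNA was found in adult LMPP and not in adult HSC, had a region of signal 15.5 that reached into chr3:54359017-54359316, plus strand. Capitals mark the ETS letters, on the other strand from 7 bases before the Sult1a1 start to the start base itself, and the Postn window held none of the motifs searched.
Sult1a1: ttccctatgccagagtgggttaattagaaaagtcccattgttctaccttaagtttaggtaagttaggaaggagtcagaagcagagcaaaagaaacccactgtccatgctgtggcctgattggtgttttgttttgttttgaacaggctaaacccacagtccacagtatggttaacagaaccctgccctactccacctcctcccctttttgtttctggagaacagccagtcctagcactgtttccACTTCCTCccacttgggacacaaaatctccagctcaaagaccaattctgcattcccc
Postn: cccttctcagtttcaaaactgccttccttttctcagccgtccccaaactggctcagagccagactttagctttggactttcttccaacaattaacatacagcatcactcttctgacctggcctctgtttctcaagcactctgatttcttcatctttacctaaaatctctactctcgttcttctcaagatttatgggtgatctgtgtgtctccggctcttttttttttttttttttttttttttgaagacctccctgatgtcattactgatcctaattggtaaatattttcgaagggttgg
Both windows come from RefSeq's GRCm38.p6 and are written in the direction of the gene, and they were chosen after their values were seen.

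Accessible chromatin was deposited as 1 peak list for each population, made from 2 ATAC samples each, so the lists carry no replicate error. The HSC list merged to 53068 regions, of which 16878 (31.8%) overlapped no region of the LMPP list, and the LMPP list merged to 50579 regions, of which 14748 (29.2%) overlapped none of the HSC list. Regions of 1 list only were shorter (median 426 and 422 bases in the HSC and LMPP lists, against 641 and 650 for shared ones) and weaker (median signal 7.23 and 6.13, against 11.5 and 9.24, in the authors' units). They also lay away from gene starts, with 6.17% and 3.45% within 1000 bases of a start against 29.6% and 29.3% of shared regions. A region missing from a list may lie just under its threshold.

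Genes whose RNA differed more often had a region at the start that was in the matching list only. This did not hold for the lists as a whole. A region of the HSC list was at the start of 81.1% of lower genes and 84.0% of genes not called. For the LMPP list the shares were 82.5% of higher genes and 81.7% of genes not called. A region within 1000 bases of the start that was in the HSC list and not in the LMPP list was found at 183 of the 1373 genes lower in LMPP (13.3%, 95% Wilson interval 11.6 to 15.2%), against 3.67% of the higher genes and 4.31% (3.96 to 4.68%) of genes not called. The reverse, a region in the LMPP list alone, was found at 82 of the 1143 higher genes (7.17%, 5.82 to 8.82%), against 1.68% of the lower genes and 1.92% (1.69 to 2.18%) of those not called. These intervals cover counting error only, treat genes as independent, and do not overlap the values of the genes not called. Within 50000 bases of the start, 39.5% of higher genes had more LMPP-only than HSC-only regions, against 20.1% of lower genes and 28.9% of those not called, and for more HSC-only regions the shares were 32.5%, 51.7% and 37.3%. Vwf and Gata2 each had a region at the start in the HSC list and none in the LMPP list (signal 11.5 and 5.1), and Csf3r and Notch1 the reverse (6.11 and 7.08). Other named genes went against their RNA. Il1r1, Slc16a11 and Postn, all higher in LMPP, had a region at the start in the HSC list only. Slamf1, lower in LMPP, had a region at the start in the LMPP list only. Cavin2 had a region at the start in both lists, with a signal of 14.9 in the HSC and 6.67 in the LMPP list, and Satb1 and Flt3 too had regions in both. Dntt had none at its start in either list, and of the 6 regions of the LMPP list alone within 50000 bases the one with the highest signal (10.5) lay 9996 bases downstream, within the gene.

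**Figure D5:**
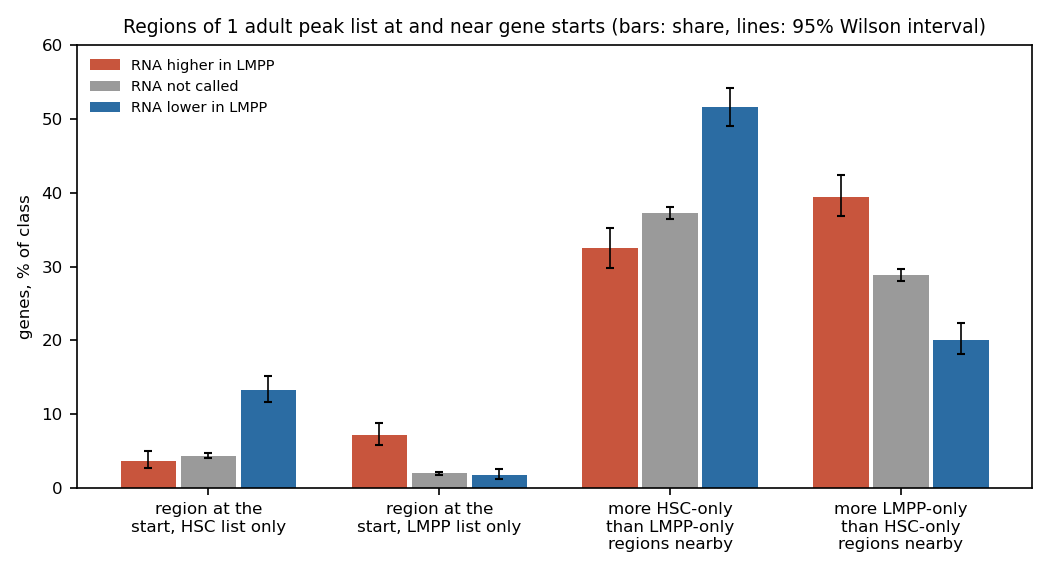
Share of genes (vertical axis, percent) with a region at the start in 1 list only, and with more regions of 1 list than of the other within 50000 bases, for genes higher in LMPP, lower in LMPP and not called; bars start at 0 and error bars are 95% Wilson intervals. HSC-only regions are most frequent at lower genes (13.3%) and LMPP-only regions at higher genes (7.17%).

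RefSeq promoter windows of 300 bases matched 811 higher, 991 lower and 9249 uncalled genes. The ETS letters GAGGAAGT, on either strand, were in 6.66% of the windows of higher genes, 2.32% of lower genes and 3.25% of uncalled genes. AP-1 letters (TGANTCA) were in 5.3%, 7.27% and 4.64%, and the E-box CAGGTG in 16.3%, 19.5% and 17.6%. GATA letters (AGATAA) were in 8.01%, 7.37% and 6.21%, so they did not separate the lower genes, which include the megakaryocyte and erythroid lists, from the higher ones. RUNX letters (TGTGGTT) were in 4.81%, 3.53% and 3.7%, and MEIS letters (TGACAG) in 15.8%, 18.7% and 16.5%. CEBP letters (TTGCGCAA) were in 0.37%, 0% and 0.281%. The shares are descriptions of these windows.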

How the data were processed

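Per the labels' protocols, RNA from sorted cells was made into libraries with SMART-Seq v4 and Nextera XT, and per the submitters' processing notes reads were handled with Trim Galore, STAR, RSEM and HOMER (RNA) and Bowtie2 2.3.5, SAMtools 1.9, Picard and MACS2 (ATAC), on mm10. The authors deposited raw exon counts made with HOMER, per the file headers. Of the values 22.5% were not whole (steps of 0.5), and these deposited estimated counts were rounded. Peak lists hold the authors' deposited signal and -log10 q values. The sources used here do not say if ATAC samples were pooled before calling. Per the labels each biological ATAC sample was run in duplicate. Overlapping peak lines were merged, and regions sharing 1 base counted as shared.

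All 11 RNA libraries entered 1 edgeR 4.0.16 quasi-likelihood fit (R 4.3.3, limma 3.58.1) of 4 group means with TMM scaling and filterByExpr, at a Benjamini-Hochberg adjusted p of 0.05; DESeq2 1.42.0 was an alternative. Errors of log2 differences are their absolute size divided by the square root of the test's F value, an approximate standard error. Deviations of same-numbered adult libraries correlated at 0.15, 0.31 and 0.47 for numbers 1 to 3, against -0.37 to 0.22 for other pairs. The value of number 1 thus lies within the range of the other pairs. Deviations were taken from group means, so that range is no independent baseline. The replicate number was used as a block in alternatives. Members and lists were chosen with earlier results of these data known. Named genes were, among called genes of at least 5 CPM (mean of the adult libraries) whose groups did not overlap, the 12 largest rises and falls, the 8 highest in each group of those changed at least 2-fold, and the 3 members of each list with the lowest p, plus 8 genes per direction for the difference between ages and a preset set; others named were chosen after their values were seen. Some genes that meet these rules are not reported here. Motifs were searched only in RefSeq windows, since a genome sequence was not used here.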

Additional observations from a re-analysis of the deposited data

Results flagged for a closer look

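For 33 named genes the difference between LMPP and HSC was not the same in adult marrow and in fetal liver by the test of the difference itself (edgeR, adjusted p from 0.00076 to 0.039). Values below are the adult minus the fetal log2 difference. Where 1 of the 4 groups has no count the fitted value depends on a small constant added by the software, so its sign and its test can be read but not its size. This holds for Cavin2 (-13.95), Evc2 (-11.69), Pls1 (-9.79), Treml1 (-9.57), Zfp711 (-9.08), Klhl13 (-7.82), Icos (8.11), Kmo (9.30) and Postn (10.83).

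Pf4 (-7.30), Mmrn1 (-2.55) and Cd9 (-1.87), found in platelets, were lower by more in adult than in fetal LMPP, besides Cavin2 and Treml1. The same sign was found for Sult1a1 (-7.13), Aqp1 (-3.04), Jam3 (-2.44), Mycn (-1.93), Bcl2l1 (-1.64) and Sqle (-1.40). Sult1a1 was at or under 0.657 CPM in the fetal libraries. Cst7 (-5.43) and Myc (-1.39) were higher in LMPP at both ages, and by more in the fetus.

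The genes higher in LMPP by more in the adult included Cd53 (3.69), Satb1 (2.96) and Flt3 (2.11), the last being used by the sort at both ages. Itgam (3.11) also had this sign, and CD11b was part of the adult gate but not of the fetal one. Wfdc17 (5.44), Ddx4 (5.38), Dhrs3 (1.75), Ect2 (1.53), Cd34 (1.35) and H2afy (0.993) followed. Slc16a11 (10.91) was higher in adult LMPP and lower in fetal LMPP than in HSC of the same age. Dach1 (5.95) and Cysltr2 (6.97) were lower in fetal LMPP by more than in adult LMPP.

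Some of these differences were lost when 1 library was left out. Without fetal HSC 2 the adjusted p was 0.067 for Treml1, 0.14 for Sult1a1, 0.17 for Pf4, 0.099 for Ddx4, 0.14 for Klhl13 and 0.14 for Dach1. Without fetal HSC 1 it was 0.12 for Sult1a1, 0.077 for Pf4, 0.062 for Ddx4, 0.085 for Klhl13 and 0.11 for Dach1. Without adult LMPP 1 it was 0.064 for Pf4, without fetal LMPP 1 it was 0.053 for Sult1a1, and without fetal LMPP 3 it was 0.051 for Ddx4. Dach1 was also lost without adult HSC 1, adult HSC 2, adult LMPP 1, adult LMPP 2, fetal LMPP 1 or fetal LMPP 2 (0.061 to 0.081).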

How the results depend on the processing

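With the adult libraries alone 701 genes were higher, and with those libraries and a replicate block 2074 were higher and 2282 lower. Without the 3 libraries that stood apart (adult HSC 3, adult LMPP 3, fetal LMPP 1) there were 2017 higher, 2291 lower, 789 with a difference between ages and 5549 fetal calls; a term for these libraries gave 2271, 2442, 856 and 4782, and the adult libraries without HSC 3 and LMPP 3 gave 2126 lower. These alternatives were chosen after seeing the data. Leaving out 1 library gave 727 to 1506 higher, 891 to 1591 lower, 32 to 170 with a difference between ages and 598 to 2006 fetal calls (598 without fetal HSC 2, 946 without fetal HSC 1, 1556 without fetal LMPP 2). DESeq2 called 1509 higher, 1858 lower and 667 with a difference between ages. The replicate block in the fit of all libraries left 86 genes with a difference between ages. It lost the call of Npm1 (adjusted p = 0.062) and the difference between ages of Dach1 (0.072), Cysltr2 (0.051) and Ddx4 (0.051), and it changed no other call of the named genes. Requiring a -log10 q of at least 10 gave shared shares of 71.6% (LMPP) and 69.4% (HSC). Named genes kept direction and side of the threshold in 2370 alternative fits, lost the call in 71 and gained it in 21. In 2 the sign of Ubb, which was not called, changed; no called gene changed sign. What causes these shifts was not tested. At 3 counts per library, levels below 0.0498 to 0.152 CPM cannot be told from 0, and 3 libraries a group limit the precision.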
